A study of Pan troglodytes and Macaca mulatta with 12 samples.

Results

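A stretch of chromosome 17 that begins near UNC13D was compared, gene by gene, between lymphoblastoid cell lines of 2 primate species. The stretch comprises every gene whose exons all lie between 71.32 and 71.46 Mb in the coordinates of the deposited files. Of the 16903 genes with counts, 7 met this rule, and 6 of them had enough counts for testing. In order of position the 6 are UNC13D (identifier ENSG00000092929), WBP2, TRIM47, TRIM65, MRPL38 and FBF1. The remaining gene, ENSG00000178932, has 1 exon and almost no reads. UNK reaches across the lower limit and does not belong to the stretch.

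The lines are B lymphocytes immortalised for culture, with 6 libraries labelled chimpanzee (Pan troglodytes, 3 of each sex) and 6 labelled rhesus macaque (2 female, 4 male). The labels name no treatment and no ages, and do not say which libraries come from separate animals or cultures, so p-values measure only the spread between these libraries. Total counts ran from 1434241 to 4751954 in the chimpanzee libraries and from 1801830 to 4600137 in those of rhesus macaque. The series asks how expression differs between primate species, and the human lines of its design are not analysed here. Gene names do not come with the files, so B cell markers were not checked. Over the 5 genes without TRIM47, chimpanzee replicate 1, the library with the smallest total, lay farthest from the chimpanzee mean, at -0.65 on the log2 scale. Over all 6 genes it lay at -0.12, and replicate 5 at -0.17. Rhesus macaque replicates 6 and 1 lay farthest over all 6 genes, at -0.72 and 0.47. Over the 5 genes they lay at -0.55 and 0.28, and replicate 3 at 0.29. Chimpanzee replicate 1 and rhesus macaque replicates 5 and 6 also lay low over chromosome 19, at -0.59, -0.20 and -0.25. Over all tested genes of chromosome 17 these libraries lay at -0.23, -0.04 and -0.09. In bulk samples such as these, fewer cells of a type and less RNA per cell cannot be told apart.

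The genes of the stretch are neighbours but belong to different pathways. UNC13D encodes Munc13-4, which readies secretory granules for fusion with the plasma membrane; loss of the gene in people causes a familial form of haemophagocytic lymphohistiocytosis, in which cytotoxic lymphocytes cannot release their granules. WBP2 encodes a WW domain-binding protein that serves as a transcriptional coactivator. TRIM47 and TRIM65 belong to the tripartite motif family of ubiquitin ligases, and TRIM65 acts on the cytosolic RNA sensor MDA5. MRPL38 is a protein of the large subunit of the mitochondrial ribosome, and FBF1 is a component of the transition fibres that anchor the cilium to the membrane.

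UNC13D spans 17489 bases from 71334905 to 71352393, with 29 counted exons that sum to 4149 bases. WBP2 starts 981 bases after the end of UNC13D and runs from 71353375 to 71363096, with 6 exons. TRIM47, with 5 exons, lies from 71381842 to 71386251. TRIM65 has 3 counted exons from 71396640 to 71400176, MRPL38 has 8 from 71406319 to 71412395, and FBF1 has 21 from 71418213 to 71445908. The distance between neighbouring genes within this group of 6 ran from 981 to 18745 bases. The genome build behind these positions was not given in the sources used here. In the chimpanzee RefSeq annotation, laid over the files with the starts of UNC13D aligned, the 6 genes came in the same order. Their starts there lay within 492 bases of those in the files. The order of these genes in the macaque genome was not examined.

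All 6 tested genes stood lower in chimpanzee, and in each of them every chimpanzee library lay below every rhesus macaque library, as in 13.8% of all tested genes. The stretch was chosen by its chimpanzee against rhesus macaque fold changes. The species values are therefore a description, and nothing is read from the counts of calls. TRIM47 differed most, WBP2 and UNC13D came next, and the remaining 3 genes differed by between 2.01-fold and 2.83-fold.

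UNC13D, the granule priming factor, ranged in rhesus macaque from 719 CPM over a median of 1229 to 2085 CPM (CPM is the usual count scaled to library size, here the TMM size). In chimpanzee it ranged from 108 CPM over a median of 274 to 295 CPM. The highest chimpanzee library stayed below the lowest rhesus macaque library by a factor of 2.43. Chimpanzee replicate 1 stood apart at 108 CPM, while the other five lay between 248 and 295 CPM. Mean levels were 247 ± 69.7 CPM for chimpanzee and 1275 ± 450 CPM for rhesus macaque (SD over 6 libraries). The log2 fold change, always chimpanzee minus rhesus macaque, was -2.36 ± 0.28 (here and below ± after a log2 fold change is its standard error), or 5.15-fold lower in chimpanzee.

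WBP2, the transcriptional coactivator, had the widest gap between the species' ranges. Its lowest, median and highest values were 1402, 1714 and 2117 CPM in rhesus macaque. In chimpanzee they were 128, 215 and 235 CPM. The lowest rhesus macaque library was 5.96 times the highest chimpanzee library. Mean levels were 203 ± 38.9 CPM for chimpanzee and 1768 ± 287 CPM for rhesus macaque (SD over 6 libraries). The log2 fold change was -3.12 ± 0.20, or 8.70-fold.

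TRIM47, a ubiquitin ligase of the tripartite motif family, had few reads in chimpanzee. The chimpanzee libraries held 35, 4, 10, 19, 1 and 14 counts in replicates 1 to 6. The rhesus macaque libraries held between 359 and 1034 counts. In CPM the lowest, median and highest values were 0.399, 3.22 and 24.2 in chimpanzee, and 76.8, 230 and 624 in rhesus macaque. The log2 fold change was -5.54 ± 0.77, or 46.4-fold lower in chimpanzee. This size leans on chimpanzee replicate 1, which held 35 of the 83 chimpanzee counts. Without that library the log2 fold change was -6.46. TRIM47 met the count filter through its rhesus macaque libraries, so a difference was built into its being tested.

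TRIM65, the ligase that acts on MDA5, ranged from 22.4 to 49.3 CPM in chimpanzee around a median of 36.9. In rhesus macaque it ranged from 62.5 to 120 CPM around a median of 105. The log2 fold change was -1.43 ± 0.24, or 2.69-fold. FBF1, the cilium component, had 12.6 to 45.9 CPM in chimpanzee with a median of 23.1, and 49.6 to 92.1 CPM in rhesus macaque with a median of 73.3. Its log2 fold change was -1.50 ± 0.29, or 2.83-fold. The lowest rhesus macaque library exceeded the highest chimpanzee library by a factor of only 1.27 for TRIM65 and 1.08 for FBF1.

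MRPL38, the mitochondrial ribosomal protein, differed least. In chimpanzee its lowest, median and highest values were 56.6, 102 and 128.2 CPM. In rhesus macaque they were 128.6, 203 and 299 CPM. The ranges nearly touch: chimpanzee replicate 2 at 128.2 CPM and rhesus macaque replicate 6 at 128.6 CPM are the neighbouring values. The log2 fold change was -1.01 ± 0.25, or 2.01-fold.

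ENSG00000178932 did not pass the count filter. It had 6 counts in all chimpanzee libraries and 21 in all rhesus macaque libraries, and its species ranges overlapped. Its only exon, of 472 bases, shares 134 bases with exon 13 of UNK. Reads in that overlap cannot be assigned to 1 of the genes, since the library steps in the labels mark no strand.

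**Figure D1:**
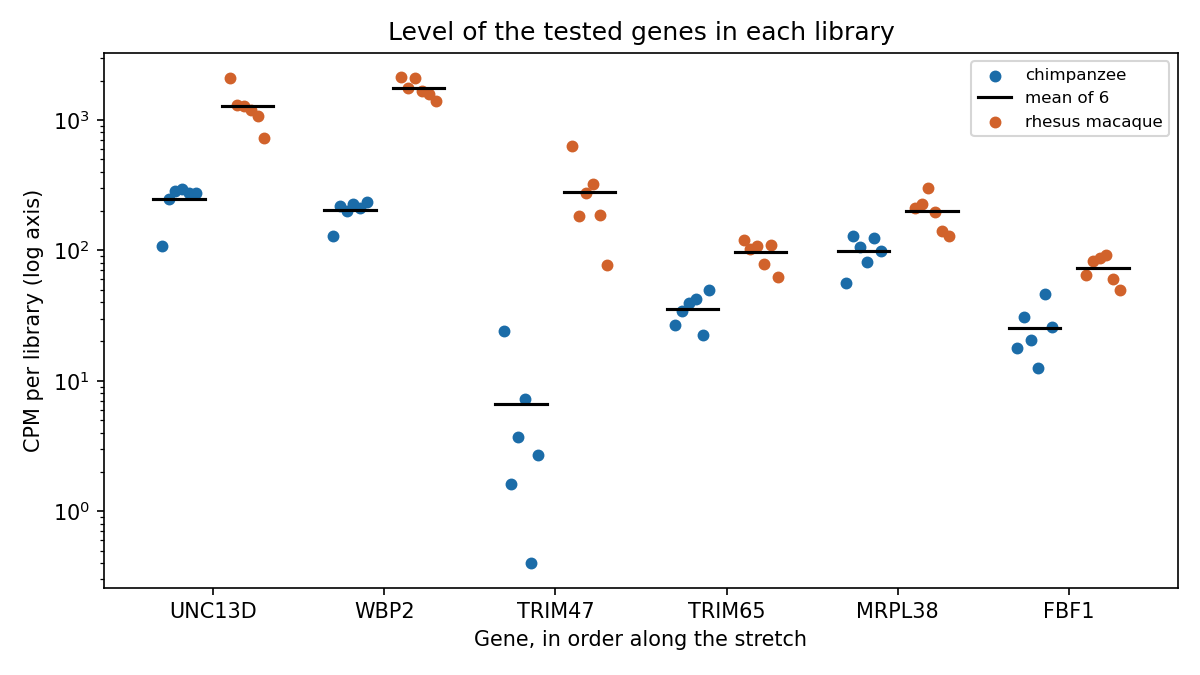
CPM of each of the 6 tested genes in each library (log axis), with 1 point per library, chimpanzee in blue and rhesus macaque in orange, and a black bar at the mean of 6 libraries. Every orange point lies above every blue point of the same gene, with the widest gap in fold for WBP2 and nearly touching ranges for MRPL38.

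In the fit over all 9440 tested genes, 6 of the 6 tested genes of the stretch were called lower in chimpanzee (adjusted p under 0.05 in edgeR's quasi-likelihood test). Over all tested genes 23.5% were called in that direction and 48.2% in either. Calls that were also beyond 1 on the log2 scale held for 6 of 6, against 16.4% of all genes. Full separation with rhesus macaque higher held for 6 of 6, against 13.8% of all genes. The median log2 fold change was -1.93 over the 6 genes, -0.03 over the 578 tested genes of chromosome 17 and 0.04 over all tested genes.

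UNK, which reaches across the lower limit of the stretch, did not pass. This RNA-binding zinc finger gene had 27.6 to 84.4 CPM in the chimpanzee libraries, which overlapped the 50.3 to 118 CPM of rhesus macaque. Its log2 fold change was -0.55 ± 0.27 (edgeR adjusted p = 0.104). A p that misses the threshold does not show that the species are alike, and whether UNK differs from the stretch was not tested.

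Farther out the tested genes went both ways. Before UNK, a gene with 1 exon from 71284112 to 71286399 was higher in chimpanzee (log2 fold change 1.18 ± 0.27). GALK1, which encodes galactokinase, and ITGB4, an integrin beta chain, were lower (log2 fold changes -1.10 ± 0.28 and -2.84 ± 0.35). ITGB4 had no more than 16 counts in any chimpanzee library. After FBF1, a gene with 6 exons from 71509550 to 71513675 was higher in chimpanzee (log2 fold change 2.53 ± 0.49). SRP68, a subunit of the signal recognition particle, and ZACN, an ion channel gene, had log2 fold changes of -0.16 and -0.01 and did not pass. Of the 7 flanking genes described, 4 passed the test, 2 in each direction, beside 48.2% of all tested genes called in either direction. ITGB4 met the count filter through its rhesus macaque libraries and the gene with 6 exons through its chimpanzee libraries. A difference was thus built into the testing of both.

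**Figure D2:**
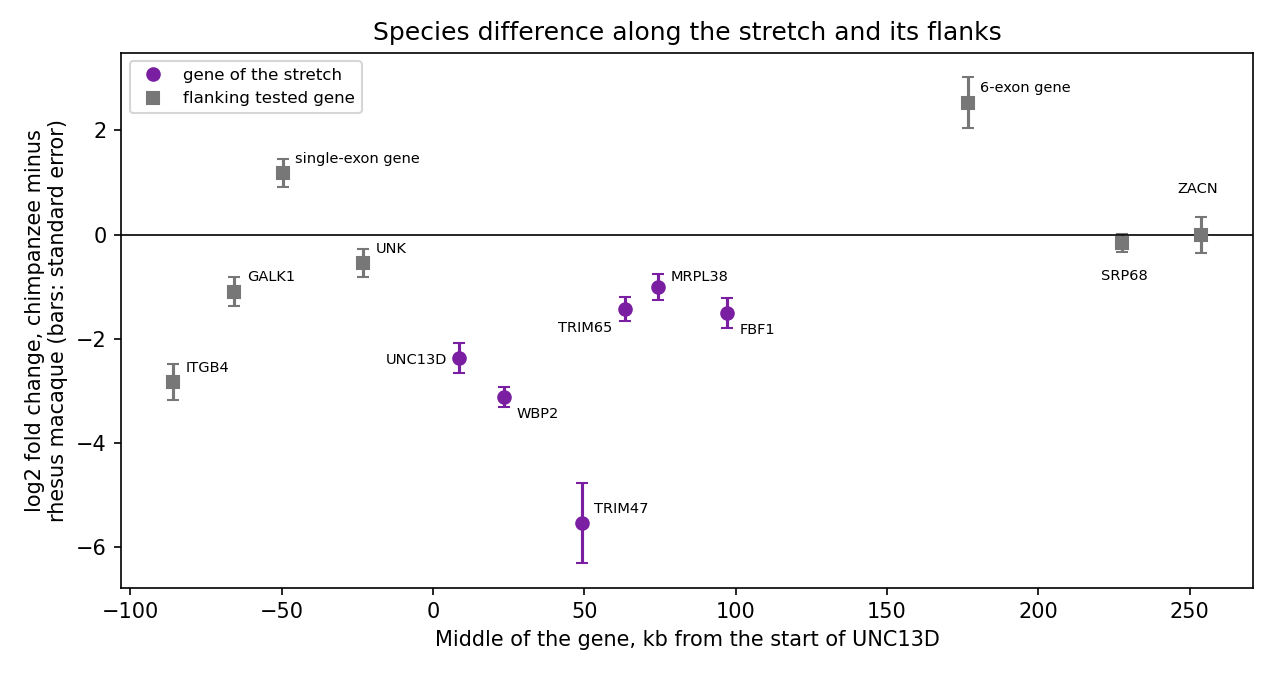
Log2 fold change of genes in and around the stretch (chimpanzee minus rhesus macaque, bars: standard error) against the distance of the gene's middle from the start of UNC13D in kb, with genes of the stretch as purple circles and the 7 flanking genes described as grey squares. The 6 circles all lie below 0, from -1.01 to -5.54, while UNK before them lies at -0.55 and the other flanking genes lie on both sides of 0.

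Levels of different genes were set side by side per kb of counted exon. In rhesus macaque the order was WBP2 at 1033 ± 168 CPM per kb, UNC13D at 307 ± 108, MRPL38 at 156 ± 48.2, TRIM47 at 127 ± 86.8, TRIM65 at 36.1 ± 8.11 and FBF1 at 22.3 ± 5.18 (SD, n = 6 each). The range of WBP2 lay above that of UNC13D, and each of the other neighbours in this order had overlapping ranges. Within every single rhesus macaque library, UNC13D still lay above MRPL38, TRIM47 above TRIM65 and TRIM65 above FBF1. In chimpanzee the order was WBP2 at 119 ± 22.7 CPM per kb, MRPL38 at 77.1 ± 20.9, UNC13D at 59.6 ± 16.8, TRIM65 at 13.3 ± 3.72, FBF1 at 7.83 ± 3.61 and TRIM47 at 3.04 ± 4.07. Here the only neighbours without overlapping ranges were UNC13D, lowest at 26.1, and TRIM65, highest at 18.4. Within every single chimpanzee library WBP2 still lay above MRPL38. By mean level TRIM47 thus held the fourth place in rhesus macaque and the last in chimpanzee. Replicate 1 of each species departed from these places. In chimpanzee replicate 1 TRIM47, at 11.05 CPM per kb, lay above both TRIM65 and FBF1. In rhesus macaque replicate 1 TRIM47, at 285.6 CPM per kb, lay above MRPL38, at 164.2. In the remaining libraries TRIM47 kept its place. The 6 genes together took between 0.0365% and 0.0742% of the counts of a chimpanzee library and between 0.248% and 0.480% of a rhesus macaque library.

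The exons of each gene went the way of the gene. All 72 counted exons of the 6 genes had a lower mean CPM per kb in chimpanzee, and in 43 of them the libraries of the species did not overlap. The share of separated exons over all genes was not computed, and the stretch was chosen on this contrast. Nothing is therefore read from the counts of separated exons here and below. The sum of these exons is the gene's level, so their direction is not independent of it. In UNC13D the ratio of rhesus macaque to chimpanzee ran from 2.20 in exon 29 to 6.85 in exon 2, with a median of 4.25 over 29 exons, and 24 exons were fully separated. In WBP2 all 6 exons were separated, with ratios from 5.33 in exon 6 to 14.8 in exon 2.

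In TRIM47 the 5 exons held 60, 6, 10, 4 and 3 counts over the chimpanzee libraries and 2113, 443, 491, 118 and 881 counts over the rhesus macaque libraries. Exon 1 held a mean share of 55.2 ± 29.7% of a chimpanzee library's TRIM47 counts and 52.5 ± 1.90% of a rhesus macaque library's (SD over 6 libraries). The chimpanzee mean gives a library with 1 count the same weight as one with 35, so it does not show that the shares are alike. The ratios of rhesus macaque to chimpanzee ran from 21.5 in exon 4 to 483 in exon 5, on 4 and 3 chimpanzee counts. In TRIM65 the ratios were 2.56, 2.11 and 4.41 for exons 1, 2 and 3, and exon 2 overlapped between the species. In MRPL38 the ratios ran from 1.23 in exon 4 to 2.78 in exon 2, and 2 of 8 exons were separated. In FBF1 4 of 21 exons were separated, and exons 18 and 19 had almost no reads, with 2 and 3 counts in chimpanzee and 2 and 4 in rhesus macaque.

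With the gene's level taken out, 0 of the 6 genes was called for a different use of exons between the species (edgeR diffSpliceDGE, Simes adjusted p from 0.248 to 1.0), against 4.24% of all genes tested in this way. The lowest of these values belonged to UNC13D. The comparison uses the species contrast that picked the stretch and is given as a description.

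**Figure D3:**
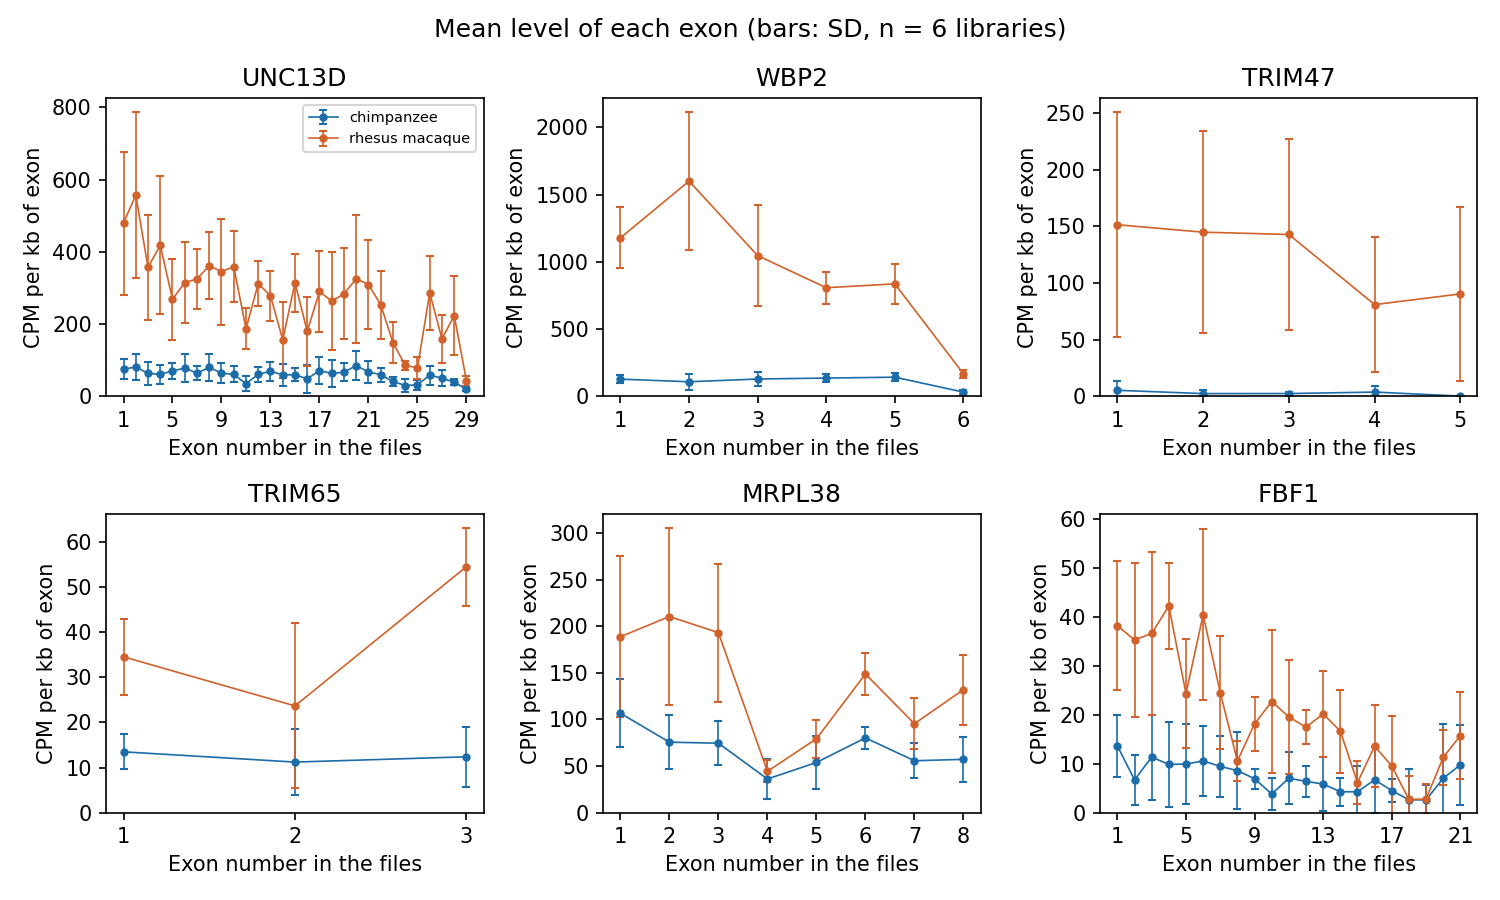
Mean level of each counted exon in CPM per kb of exon, by exon number in the files and by species, for the 6 genes (points: mean of 6 libraries, bars: SD, cut off at 0). The orange rhesus macaque line lies above the blue chimpanzee line in every panel, nearly touching it at exon 4 of MRPL38 and exons 18 and 19 of FBF1.

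Variation between libraries of the same species had no part in the choice of the stretch. In rhesus macaque TRIM47 was the most variable of the 6 genes, with an SD of log2 CPM of 1.01, and 91.4% of all tested genes had a smaller SD there. Its highest rhesus macaque library was 8.13 times its lowest, a ratio of 4.22 without replicate 1 and 3.41 without replicate 6. In chimpanzee the SD of TRIM47 was 1.55, from 1 to 35 counts per library, so counting error is part of it, and it was 1.06 without replicate 1. WBP2 was the least variable, with SDs of 0.32 and 0.23, beside medians of 0.48 and 0.45 over all tested genes. UNC13D had SDs of 0.55 and 0.49, and the other 3 genes lay between 0.35 and 0.63.

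Neighbouring genes were compared across the 6 libraries of each species, with 5 pairs per species and 10 relations in all. In rhesus macaque all 5 pairs had a positive correlation of log2 CPM, but without the 2 libraries farthest from the median of the first gene TRIM47 and TRIM65 went from 0.69 to -0.73, and TRIM65 and MRPL38 from 0.54 to -0.20. For UNC13D and WBP2 Pearson's r was 0.87 (exact permutation p = 0.0139, adjusted p = 0.139) and Spearman's rho was 0.94 (exact permutation p = 0.0167, adjusted p = 0.167), two-sided, n = 6. Without the 2 libraries farthest from the median of UNC13D, r was 0.73. For WBP2 and TRIM47 r was 0.82 (exact permutation p = 0.0444, adjusted p = 0.201) and rho was 0.71 (exact permutation p = 0.136, adjusted p = 0.438). No relation passed after adjustment over the 10, and 2 were under 0.05 before it.

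In chimpanzee 4 of the 5 pairs had a positive correlation. MRPL38 and FBF1 had r = 0.70 (exact permutation p = 0.118, adjusted p = 0.206) and rho = 0.83 (exact permutation p = 0.0583, adjusted p = 0.292), beside r = 0.80 in rhesus macaque (exact permutation p = 0.0639, adjusted p = 0.201). UNC13D and WBP2 had r = 0.96 but rho = 0.31 (exact permutation p = 0.0806 and 0.564, adjusted p = 0.201 and 0.658), and without the 2 farthest libraries r was -0.01. That relation rests on replicate 1, the lowest library for both genes. WBP2 and TRIM47 had r = -0.73 (exact permutation p = 0.131, adjusted p = 0.206; rho = -0.31, exact permutation p = 0.564, adjusted p = 0.658), and without the 2 farthest libraries r was 0.24. Replicate 1 held the highest TRIM47 level, 24.2 CPM, together with the lowest levels of UNC13D, WBP2 and MRPL38. Whether the correlations differ between the species was not tested.

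Relations between a gene's level and the library total were added after seeing the data, so their p-values are a description. Of 12 such relations, 1 passed the threshold, that of UNC13D in rhesus macaque. UNC13D stood at 2085 CPM in replicate 1, with 1801830 counts in all, and at 719 CPM in replicate 6, with 4600137 counts, and the order of the 6 libraries by level was the reverse of their order by total. Pearson's r of log2 CPM with log2 total was -0.88 (exact permutation p = 0.00139, the smallest that 6 libraries allow, adjusted over 12 relations p = 0.0167) and Spearman's rho was -1 (exact permutation p = 0.00278, adjusted p = 0.0333). Without the 2 libraries whose log2 totals lay farthest from the median, r was -0.94. Without any 1 library it lay between -0.92 and -0.78. Of 9434 genes, 3.57% had an r below that of UNC13D. For WBP2, which reached the threshold without passing it, r was -0.93 (exact permutation p = 0.00833, adjusted p = 0.05; rho = -0.94, exact permutation p = 0.0167, adjusted p = 0.1), and without the 2 farthest libraries it was -0.82.

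The remaining 10 relations with the total did not pass. The median r of the 6 genes was -0.80 in rhesus macaque. Without the 2 libraries whose log2 totals lay farthest from the median it was -0.67, with 1 of 6 signs turned. In chimpanzee the median r was 0.59, and 0.02 without the 2 libraries farthest by log2 total, with 4 of 6 signs turned. The medians over all tested genes were 0.00563 and -0.00136. For UNC13D in chimpanzee r was 0.73 (exact permutation p = 0.207, adjusted p = 0.298) and rho was 0.6 (exact permutation p = 0.242, adjusted p = 0.362). The genes of chromosome 19 also deviated in the same libraries, by -0.59 on the log2 scale in chimpanzee replicate 1 and by -0.20 and -0.25 in rhesus macaque replicates 5 and 6. The part of library total and of this deviation in the differences between libraries was not tested. Without chimpanzee replicate 1 and rhesus macaque replicates 5 and 6 the log2 fold changes were -2.42 for UNC13D and -3.14 for WBP2. With all libraries they were -2.36 and -3.12. For TRIM47 the log2 fold change was -6.79 without these libraries and -5.54 with them. For TRIM65, MRPL38 and FBF1 it was -1.44, -1.12 and -1.60 without them, and -1.43, -1.01 and -1.50 with them.

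**Figure D4:**
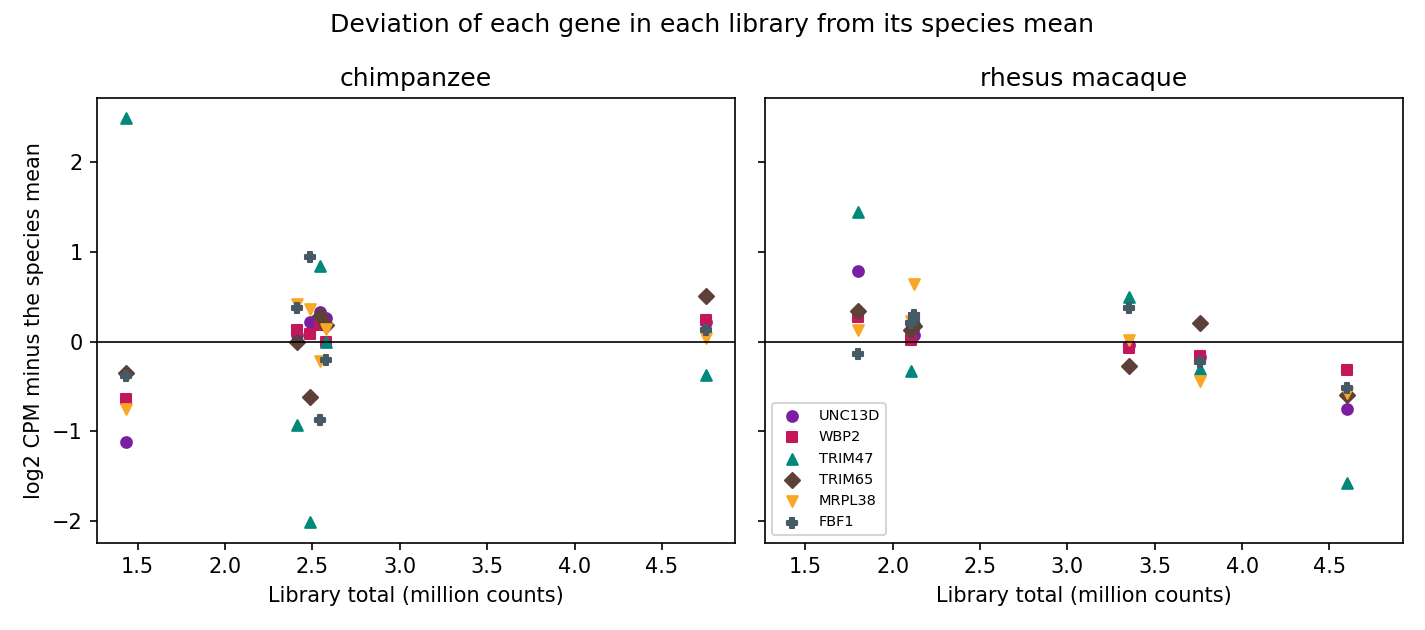
Deviation of each gene's log2 CPM from its species mean, against the library's total count, with 1 symbol per gene and 1 panel per species (6 libraries each). In rhesus macaque the library with the largest total lies below 0 for all 6 genes, and in chimpanzee the library with the smallest total has TRIM47 at its highest and UNC13D, WBP2 and MRPL38 at their lowest.

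Over all 12 libraries, each taken as its deviation from the species mean, the gene most like UNC13D outside the stretch lay on chromosome 19 from 60803542 to 60806316 (Pearson's r = 0.97). Next came a gene of chromosome 9, spanning 135314952 to 135322971 (r = 0.95), another on chromosome 19 from 4396009 to 4404519 (r = 0.95), and genes on chromosome 9 from 134962928 to 134994526 and from 129534134 to 129537394 (r = 0.95 each). These points share library total and composition, and the values are a description. Within the stretch WBP2 had r = 0.92 and ranked 15 of 9440, counting UNC13D itself as 1. MRPL38 and TRIM65 had r = 0.69 and 0.60, FBF1 0.26 and TRIM47 -0.11. The order rests on chimpanzee replicate 1 and rhesus macaque replicates 1 and 6, which hold 88% of the squared deviation of UNC13D. Without these 3 libraries, in a comparison added after seeing the data, the 5 genes had r from 0.03 to 0.88 and WBP2 had 0.48, at rank 1151. Among the 5 genes most like UNC13D between libraries, species log2 fold changes ran from -0.82 to 1.31, none near the -2.36 of UNC13D.

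The sexes were set against each other inside each species, a contrast that had no part in choosing the stretch. None of the 6 genes passed in chimpanzee, in rhesus macaque or for the difference between the species (edgeR, background 0% called in each), nor with DESeq2's Wald test. At an unadjusted p under 0.05 there were 0 of the 6 genes in each comparison, and 654, 206 and 479 of the 9440 genes. The largest female against male difference relative to its error was in TRIM65 in chimpanzee, at 43.7 ± 5.12 CPM in females and 27.9 ± 6.13 in males (SD, n = 3 each). There the 3 female libraries lay above the 3 male ones, and the log2 difference was 0.64 ± 0.31 (edgeR adjusted p = 0.738). In rhesus macaque the levels of TRIM65 in the 2 females lay within the range of the 4 males.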

How the data were processed

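RNA sequencing libraries of lymphoblastoid lines, 12 in all, were analysed from the deposited counts. These are whole numbers per exon as the authors made them, 1 file per library. Exons at 0 are not listed and were taken as 0. The aligner, counting tool, build and rules that matched exons between the species were not given in the sources used here, and a species difference in mapping was not tested. Per the labels' protocols, the library steps mark no strand. Libraries were grouped by the species in the labels. Replicate numbers follow accession order and pair nothing.

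Exon counts were summed per gene and fitted over all genes with edgeR 4.0.16 (limma 3.58.1, R 4.3.3): TMM, the default filter (minimum count 10, minimum total 15, at least 6 libraries), the robust quasi-likelihood test and Benjamini-Hochberg adjustment at 0.05. Sex used 4 groups (species by sex). Log2 CPM used a prior count of 2. For exon usage diffSpliceDGE took every exon of 10 counts or more. Correlations used all 720 orders of 6 libraries. The relations with library total were added after seeing the data. Counts simulated with known changes were used to test each fit.

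The definition of the stretch names UNC13D, WBP2, TRIM47, TRIM65 and MRPL38, and these names were given to identifiers by their order of position. Of the files' identifiers, 0 matched the symbol tables. Other names were given only where 1 gene of the chimpanzee RefSeq annotation (NHGRI_mPanTro3-v2.0_pri), laid over the files with the starts of UNC13D aligned, covered at least 50% of both spans. Of the names from the definition, TRIM65 alone missed this bar (41.7% of the RefSeq span). The gene lists and cell markers planned needed symbols and were not run. All members are named, with the nearest tested genes (up to 4 on each side, 1 of which is not reported here) and the 5 genes most like UNC13D. The members and lists were chosen with earlier results of these data known. Alternatives were other scalings (DESeq2 1.42.0 size factors, upper quartile), DESeq2's Wald test, no filter, other exon sets, thinning to 1434241 counts, males only and leaving out each library.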

Additional observations from a re-analysis of the deposited data

Results flagged for a closer look

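In 2 of 12 groups of 6 libraries (6 genes by 2 species), 1 library stood far from the others by Dixon's gap test at its 95% critical value, which chance exceeds in about 1 of 20 groups. Both were chimpanzee replicate 1 at its lowest: for UNC13D its gap to the next library was 0.827 of the whole range of log2 CPM (108 CPM against 248 CPM), and for WBP2 0.724 (128 CPM against 199 CPM). This library has the smallest total, 1434241 counts. Without it the log2 fold changes were -2.22 for UNC13D and -3.02 for WBP2.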

How the results depend on the processing

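The log2 fold changes of the 6 genes kept their sign under all 22 alternatives. UNC13D, WBP2, TRIM47 and TRIM65 kept their calls under all of them, with ranges of -2.66 to -2.18, -3.30 to -3.02, -6.79 to -5.15 and -2.005 to -1.34. With males only, MRPL38 (-1.05, edgeR adjusted p = 0.0706) and FBF1 (-1.14, edgeR adjusted p = 0.0539) lost theirs, which left 4 of 6 calls with 7 libraries. Otherwise MRPL38 and FBF1 kept their calls, and their ranges were -1.24 to -0.87 and -1.76 to -1.14. The size for TRIM47 moved by more than 1.5 times without chimpanzee replicate 1 (-6.46), without its strongest exon (-6.63) and without chimpanzee replicate 1 and rhesus macaque replicates 5 and 6 (-6.79), a setting chosen after seeing the data. The cause was not tested. The 0 calls for sex held under 15 alternatives for each of the 3 comparisons, DESeq2's Wald test included, with lowest adjusted p-values of 0.294, 0.887 and 0.559. Where 1 rhesus macaque female was left out, the lone one was assumed to vary like the other groups. There were also 0 adjusted calls among neighbour correlations under 14 alternatives (lowest adjusted p = 0.0833, exact permutation). Most of these left out 1 library, and its species then had too few orders for a lone relation to pass. The smallest adjusted p such a relation could reach is 0.0833, so these settings cannot show that the 0 calls held. The 0 calls for exon usage held with at least 30 counts per exon. Of the 7 flanking genes, 4 passed also with upper quartile scaling. The relation of UNC13D with library total in rhesus macaque had r = -0.88 under 3 other settings, chosen after seeing the data. With 1 to 35 TRIM47 counts per chimpanzee library, its level there is limited by counting error, and intervals from reads without molecular identifiers would cover counting error only.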
